A study of Homo sapiens with 28 samples.

Results

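Non-homologous end joining is the pathway that rejoins the 2 ends of a broken DNA molecule, and it was followed here through 10 genes: LIG4, XRCC4, XRCC5, XRCC6, PRKDC, NHEJ1, DCLRE1C, POLL, MAD2L2 and RIF1. They were taken by name, as the core end joining genes and those that process or protect the ends, from 19050 gene names with guides in a pooled CRISPR knockout screen and 25807 symbols in an RNA-seq table. All 10 were found in both. The screen listed 59 guides against them, 6 for each of 9 genes and 5 for XRCC6.

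All samples were U2OS cells, a human osteosarcoma line. In the screen, p53 knockout (KO) and p53 wild-type (WT) U2OS cells carried a library of guide RNAs, and guides were counted in genomic DNA after 96 h in 5 µM etoposide, after 96 h in DMSO and at the start (T0). This gave 6 groups, each with a library A, B and C: KO etoposide, KO DMSO, KO T0, WT etoposide, WT DMSO and WT T0. The 96 h controls are labelled both untreated and as DMSO-treated, and are called DMSO here. For the RNA, p53 WT U2OS recipients were kept for 8 h in medium taken from donor U2OS cells, and total RNA was sequenced. The donors were p53 KO cells given 31.6 µM etoposide, p53 KO controls, p53 WT cells given 31.6 µM etoposide, or p53 WT controls (these controls, too, are labelled both untreated and DMSO), and a further group of recipients was taken at T0 without conditioned medium. Each of these 5 groups had 2 libraries, A and B. The labels do not say whether the KO line was 1 clone, nor whether separate cultures stand behind the libraries of a group. The p-values therefore measure only the spread between these libraries, which may be technical.

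In this pathway the ring-shaped heterodimer of Ku80 (XRCC5) and Ku70 (XRCC6) slides onto a DNA end and recruits the kinase DNA-PKcs (PRKDC). Artemis (DCLRE1C) and DNA polymerase lambda (POLL) trim and fill ends that cannot be joined directly, and DNA ligase IV (LIG4), held by its partner XRCC4 and aligned with the help of XLF (NHEJ1), seals them. RIF1 and REV7 (MAD2L2, a subunit of shieldin and also of the translesion polymerase zeta) act after 53BP1 to protect ends from resection and so favour joining over homologous recombination. Etoposide traps topoisomerase II on cleaved DNA and leaves double-strand breaks, which this pathway repairs throughout the cell cycle. Guide abundance is a share of the pool, read against the reference group of a comparison. A lower guide marks knockouts that are scarcer than in that group, and a higher one marks knockouts that are more frequent than in it.

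Screen libraries held 30437296 to 48230735 guide counts and RNA libraries 16825669 to 20290764 counts. The 59 guides averaged between 89.94 and 829.5 counts per library, and no single count of theirs was below 41. In the screen, guides against CDKN1A, which encodes the p53 target p21, were not called with etoposide in KO cells (−0.17 ± 0.06, log2 fold change ± SE) and fell in WT cells (−0.48 ± 0.06). The difference between the lines, KO minus WT, was 0.31 ± 0.08 and was not called (adjusted p = 0.0948, edgeR). The knockout itself cannot be read from guide counts or from the RNA of the recipients, which are p53 WT. In the RNA, VIM, COL1A1 and SPARC, markers of mesenchymal and bone cells, had medians of 2234, 8710 and 2035 CPM (counts scaled to the library total) over the 10 libraries, whereas COL1A2 was near 0 (0.412 to 1.27 CPM). Of the markers of other cell types, EPCAM, CDH1, PTPRC, CD3E, CDH5, PECAM1 and SOX10 all lay below 7.05 CPM in every library. The 2 libraries of the KO DMSO medium group differed from each other more than those of any other RNA group, by a chi-square per gene of 12.84 against 1.9 to 5.11.

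With etoposide in p53 KO cells, guides against LIG4, the ligase that seals the ends, were lost. Their summed abundance was 42.5, 47.5 and 46.8 CPM in the KO etoposide libraries, against 54.8, 55.7 and 54.8 CPM in the KO DMSO libraries. All 3 etoposide libraries lay below all 3 DMSO libraries. Here and below, screen groups of 3 libraries that do not overlap say little by themselves. The share of all genes or guides without such overlap was not counted. The log2 fold change on summed counts was −0.27 ± 0.05 (SE), a level 0.828 times that in DMSO (adjusted p = 0.000123, edgeR's quasi-likelihood test with Benjamini-Hochberg adjustment over 19044 genes). All 6 guides were lower, with a mean over guides of −0.40 ± 0.34 (SD, n = 6 guides). The call held under each of the 14 alternatives run, with log2 fold changes between −0.40 and −0.22. LIG4 was the 1 member called of 10, where 4.29% of all genes were called in either direction. The median of the 10 members was −0.05, beside −0.01 for all genes tested.

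The 6 LIG4 guides moved by different amounts, and the guide counted most moved least. The guide HGLibB_26448 stood at 3.16, 2.38 and 2.80 CPM in KO etoposide, against 5.27, 5.53 and 5.08 CPM in KO DMSO, a log2 fold change of −0.92 ± 0.17 (SE, adjusted p = 0.000501 over 109367 guides). The guide HGLibB_26450 stood at 3.00, 4.04 and 4.23 CPM in KO etoposide, against 5.32, 5.76 and 6.23 CPM in KO DMSO (−0.63 ± 0.16, adjusted p = 0.0354). Neither guide's libraries overlapped between the groups. HGLibA_26486 was lower by a log2 fold change of −0.50 ± 0.14 and was not called (adjusted p = 0.0551). The remaining 3 guides lay between −0.16 and −0.04, and among them HGLibA_26485, with 14.9 to 18.4 CPM in these 6 libraries, was the LIG4 guide counted most. Without the guide of highest count, LIG4 fell by 0.39 on the log2 scale. Of all 59 guides of the members, 2 were called in this comparison, both against LIG4 and both lower, where 0.841% of all guides were called.

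The other members were not called in p53 KO cells. The Ku genes stood at −0.11 ± 0.06 for XRCC5 (adjusted p = 0.368) and 0.07 ± 0.09 for XRCC6 (adjusted p = 0.763), log2 fold changes of summed counts ± SE. One XRCC5 guide, HGLibB_54529, gave −0.84 ± 0.24 and was not called (adjusted p = 0.0709). PRKDC, the kinase they recruit, stood at −0.07 ± 0.05 (adjusted p = 0.537). XRCC4, which holds the ligase, stood at −0.01 ± 0.06 (adjusted p = 0.961), and NHEJ1 at −0.05 ± 0.05 (adjusted p = 0.615). For both partners of the ligase the KO etoposide and KO DMSO libraries overlapped, with XRCC4 at 42.4 to 46.3 CPM in etoposide and 41.9 to 45.8 CPM in DMSO. The end processing genes DCLRE1C and POLL stood at −0.05 ± 0.05 each, and the end protecting genes MAD2L2 and RIF1 at 0.02 ± 0.05 and 0.02 ± 0.06.

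**Figure D1:**
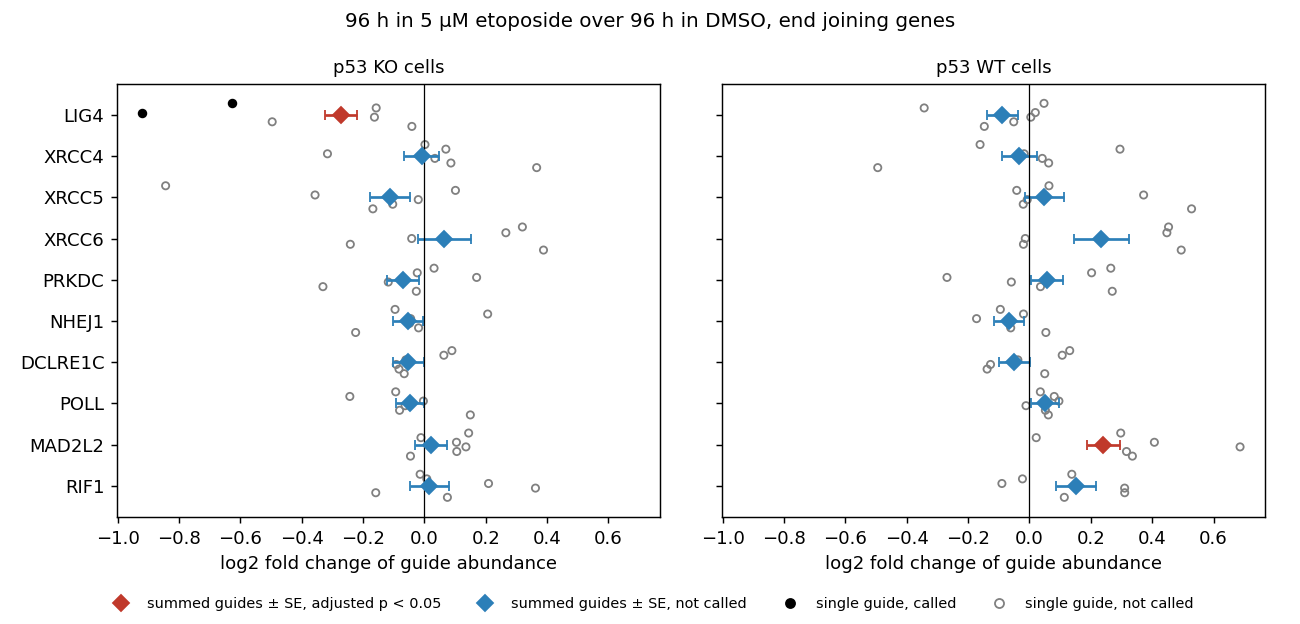
Log2 fold change of guide abundance after 96 h in 5 µM etoposide over 96 h in DMSO for the 10 members, in p53 KO cells (left) and p53 WT cells (right). Diamonds are summed guide counts of a gene with their SE (red where the adjusted p is under 0.05) and circles are single guides (filled where called). LIG4 at −0.27 is the called gene in KO cells and MAD2L2 at 0.24 the called gene in WT cells.

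With etoposide in p53 WT cells, guides against MAD2L2 were the ones called, and they stood higher than in DMSO. Their summed abundance was 47.1, 51.4 and 48.7 CPM in the WT etoposide libraries, against 40.3, 41.3 and 43.1 CPM in the WT DMSO libraries. All 3 etoposide libraries lay above all 3 DMSO libraries. The log2 fold change was 0.24 ± 0.05 (SE, adjusted p = 0.00241, edgeR), a level 1.18 times that in DMSO, and all 6 guides were higher, with a mean of 0.34 ± 0.21 (SD, n = 6 guides). The WT T0 libraries, at 53.6, 53.2 and 49.9 CPM, overlapped with the WT etoposide libraries and lay above all WT DMSO libraries. Over T0, MAD2L2 in WT etoposide gave −0.09 ± 0.05 and was not called (adjusted p = 0.684). Without WT etoposide library B the call against DMSO was lost (0.21, adjusted p = 0.0647). MAD2L2 was the 1 member called of 10, where 2.03% of all genes were called.

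No single guide of the members was called in WT cells, where 0.372% of all guides were. The MAD2L2 guide that moved most, HGLibA_27852, stood at 3.07, 2.92 and 4.04 CPM in WT etoposide, against 1.36, 2.10 and 2.78 CPM in WT DMSO (0.69 ± 0.22, adjusted p = 0.185), with no overlap between these libraries. The guide that moved least, HGLibB_27810, gave 0.02 ± 0.09 and was the MAD2L2 guide counted most. LIG4 guides did not pass the test in WT cells. They stood at 53.9, 57.1 and 57.8 CPM in etoposide and 62.8, 55.9 and 60.8 CPM in DMSO, and these libraries overlapped (−0.09 ± 0.05, adjusted p = 0.453). The guides HGLibB_26448 and HGLibB_26450, called in KO cells, gave 0.02 ± 0.16 and 0.05 ± 0.16 in WT cells. These 2 were picked by their KO values, so a smaller value in the other line says little. In the test of the difference between the lines 0 of the 59 member guides were called. Of all 109367 guides 2 were called higher and 1 lower in it. XRCC6 gave 0.23 ± 0.09 (adjusted p = 0.19), with 16.0, 17.9 and 20.5 CPM in etoposide and 18.8, 12.6 and 14.7 CPM in DMSO. Without WT DMSO library A it was called (0.41, adjusted p = 0.00578), and it was also called when libraries were scaled to non-targeting guides (0.28, adjusted p = 0.0444). RIF1 gave 0.15 ± 0.06 (adjusted p = 0.268), and the other 6 members lay between −0.07 and 0.06.

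The effect of etoposide was not shown to differ between KO and WT cells for any member. The difference of the log2 fold changes, KO minus WT, was −0.18 ± 0.07 (SE) for LIG4 (unadjusted p = 0.0127, adjusted p = 0.338, edgeR) and −0.22 ± 0.08 for MAD2L2 (unadjusted p = 0.00478, adjusted p = 0.26). These were the 2 members with an unadjusted p under 0.05. Over all genes 0.0525% were called in this test, 10 of 19044. DESeq2 and limma also called 0 members. The differences of the 10 members ran from −0.22 for MAD2L2 to 0.02 for XRCC4, with a median of −0.13 beside 0.00 for all genes. The members share their libraries, so this median is a description and not a test.

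Guides against XRCC6 and MAD2L2 were lost in both lines during growth without drug, 96 h in DMSO against T0. Those against XRCC5 and RIF1 were called in WT cells only. In p53 KO cells XRCC6 guides fell to 19.7, 20.8 and 22.0 CPM in DMSO, against 28.6, 26.0 and 23.9 CPM at T0. MAD2L2 guides fell to 49.4, 46.0 and 49.1 CPM in DMSO, against 57.4, 59.1 and 56.5 CPM at T0. In neither case did the groups overlap. The log2 fold changes were −0.32 ± 0.08 for XRCC6 (SE, adjusted p = 0.0117, edgeR, 5 of 5 guides lower) and −0.26 ± 0.05 for MAD2L2 (adjusted p = 0.000389, 6 of 6 guides lower). The XRCC6 call was lost without KO T0 library A (−0.26, adjusted p = 0.149) or KO DMSO library A (−0.28, adjusted p = 0.0739). These were 2 members of 10, where 3.23% of all genes were called in KO cells. XRCC5, the other Ku gene, gave −0.13 ± 0.06 (adjusted p = 0.306), and RIF1 −0.06 ± 0.06 (adjusted p = 0.688). Over growth 0 of the 16 other end joining genes measured were called in either line. The share of all genes called was 3.23% in KO and 6.53% in WT cells. Among these 16, the 53BP1 gene TP53BP1 gave −0.07 ± 0.05 in KO cells and 0.10 ± 0.05 in WT cells.

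In p53 WT cells 4 members fell over the same 96 h in DMSO, where 6.53% of all genes were called. XRCC6 guides stood at 18.8, 12.6 and 14.7 CPM in DMSO, against 21.4, 20.2 and 19.8 CPM at T0 (−0.40 ± 0.09, adjusted p = 0.000781). XRCC5 guides stood at 32.0, 31.3 and 33.2 CPM in DMSO, against 38.7, 39.2 and 35.4 CPM at T0 (−0.23 ± 0.06, adjusted p = 0.0118). For both Ku genes the groups did not overlap. MAD2L2 guides stood at 40.3, 41.3 and 43.1 CPM in DMSO, against 53.6, 53.2 and 49.9 CPM at T0 (−0.33 ± 0.05, adjusted p = 2.31e-06). RIF1, which brings phosphatase 1 to chromatin as well as acting with 53BP1, stood at 30.1, 33.0 and 33.2 CPM in DMSO, against 41.2, 43.5 and 37.9 CPM at T0 (−0.35 ± 0.06, adjusted p = 3.17e-05). The groups of these end protecting genes did not overlap either. The guides that were lower in WT cells were 4 of 5 for XRCC6, 4 of 6 for XRCC5, 5 of 6 for MAD2L2 and 5 of 6 for RIF1. The XRCC5 call was lost without WT T0 library A (adjusted p = 0.0658), WT T0 library B (0.0965) or WT DMSO library B (0.054). PRKDC was not called (−0.11 ± 0.05, adjusted p = 0.239) but was when libraries were scaled to non-targeting guides (−0.19, adjusted p = 0.00746).

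The guides of these genes moved by different amounts. Of the 59 guides, 7 were called in WT cells in DMSO against T0, all lower, where 1.54% of all guides were called, and 1 in KO cells, where 0.609% were. The MAD2L2 guides HGLibA_27852 and HGLibB_27809 fell by 1.24 and 0.94 on the log2 scale in WT cells, and HGLibA_27850 by 0.45. HGLibA_27852 was counted at 1.36, 2.10 and 2.78 CPM in WT DMSO and at 4.82, 4.57 and 5.36 CPM in WT T0. The XRCC5 guides HGLibA_54594 and HGLibA_54595 fell by 1.06 and 0.52. HGLibA_54594 was counted at 1.70, 1.29 and 2.51 CPM in WT DMSO and at 4.12, 4.08 and 3.33 CPM in WT T0. The remaining 2 called guides were HGLibB_54532 against XRCC6 (−1.10 ± 0.23) and HGLibA_41244 against RIF1 (−0.50 ± 0.12). The highest guides of the same genes in WT cells stood at 0.18 for XRCC5, 0.01 for XRCC6, 0.08 for MAD2L2 and 0.16 for RIF1, and were not called. In KO cells the called guide was HGLibA_27851 against MAD2L2 (−0.62 ± 0.16). LIG4, XRCC4, NHEJ1, DCLRE1C and POLL were not called in either line, with log2 fold changes on summed counts from −0.07 to 0.09.

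**Figure D2:**
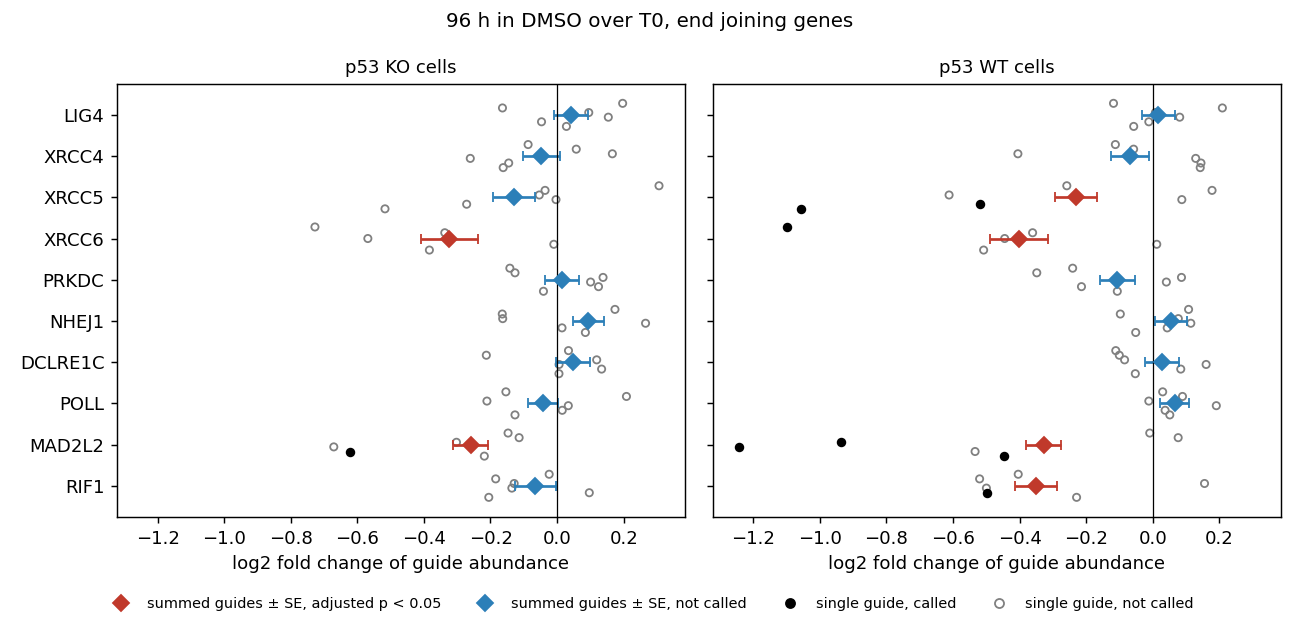
Log2 fold change of guide abundance after 96 h in DMSO over T0 for the 10 members, in p53 KO cells (left) and p53 WT cells (right). Diamonds are summed guide counts with their SE (red where the adjusted p is under 0.05) and circles are single guides (filled where called). XRCC6 and MAD2L2 are called in KO cells at −0.32 and −0.26, and XRCC5, XRCC6, MAD2L2 and RIF1 in WT cells at −0.23 to −0.40.

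The growth effect was not shown to differ between the lines for any member, and 0.0158% of all genes, 3 of 19044, were called in that test. DESeq2 and limma called 0 members too. RIF1 was the 1 member with an unadjusted p under 0.05, with a difference KO minus WT of 0.29 ± 0.09 (unadjusted p = 0.00192, adjusted p = 0.344). RIF1 guides stood at 39.2, 41.6 and 42.5 CPM in KO DMSO and 41.5, 42.3 and 45.2 CPM in KO T0, and these libraries overlapped, unlike those of WT cells.

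Etoposide against T0 sums growth and drug, and shares its libraries with the comparisons above. In KO cells LIG4 (−0.23 ± 0.05, adjusted p = 0.00571), XRCC5 (−0.24 ± 0.06, adjusted p = 0.0316) and MAD2L2 (−0.24 ± 0.05, adjusted p = 0.00494) fell, 3 members of 10 where 1.11% of all genes were called. XRCC5 guides stood at 33.5, 30.6 and 32.9 CPM in KO etoposide, against 36.1, 37.7 and 40.9 CPM in KO T0, with no overlap. LIG4 guides stood at 53.3, 55.6 and 51.5 CPM in KO T0, above all 3 KO etoposide libraries. Each of these calls was lost in at least 1 alternative. LIG4 and MAD2L2 were lost without KO T0 library B (adjusted p = 0.105 and 0.069) or KO etoposide library A (0.135 and 0.0649). XRCC5 was lost without KO T0 library B (0.0921) or C (0.308), without KO etoposide library B (0.213) or C (0.0759), and with guides of a mean count under 100 left out (0.0652). In WT cells no member was called, where 0.761% of all genes were. The members nearest the threshold were RIF1 (−0.20 ± 0.06, adjusted p = 0.156) and XRCC5 (−0.18 ± 0.06, adjusted p = 0.245), and 3 members had an unadjusted p under 0.05, the other being POLL (0.12 ± 0.05). RIF1 was called with only the compared libraries in the fit (adjusted p = 0.0249) and when libraries were scaled to non-targeting guides (0.0347), XRCC5 was called without its most counted guide (−0.30, adjusted p = 0.04), and 0 members were called by DESeq2 or limma. Of single guides, HGLibB_26448 against LIG4 was called in KO cells (−0.83 ± 0.17, adjusted p = 0.0221), where 0.0457% of all guides were, and HGLibA_54595 against XRCC5 in WT cells (−0.54 ± 0.12, adjusted p = 0.0255), where 0.101% were.

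The starting pools differed for XRCC6. Its guides stood at 28.6, 26.0 and 23.9 CPM in KO T0, against 21.4, 20.2 and 19.8 CPM in WT T0, with no overlap (0.35 ± 0.08, adjusted p = 0.00644). It was the 1 member called of 10, where 4.52% of all genes were called. One guide, HGLibA_54598, stood at 8.88, 8.69 and 6.72 CPM in KO T0, against 6.25, 4.84 and 4.43 CPM in WT T0 (0.65 ± 0.16, adjusted p = 0.0133). It was the most counted XRCC6 guide, and without it the gene was not called (0.24, adjusted p = 0.179). The call was also lost without KO T0 library A (adjusted p = 0.0765) or WT T0 library C (0.0504). LIG4 gave −0.15 ± 0.05 (adjusted p = 0.0739) and MAD2L2 0.14 ± 0.05 (adjusted p = 0.0885). Both were called with only the libraries compared in the fit (0.0183 and 0.0259), and MAD2L2 also with non-targeting scaling (0.0112). One PRKDC guide, HGLibB_38525, was lower in the KO pool (−0.68 ± 0.15, adjusted p = 0.0063), while PRKDC as a gene was not called (−0.09 ± 0.05). Over all guides 2.67% were called between the pools at T0.

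**Figure D3:**
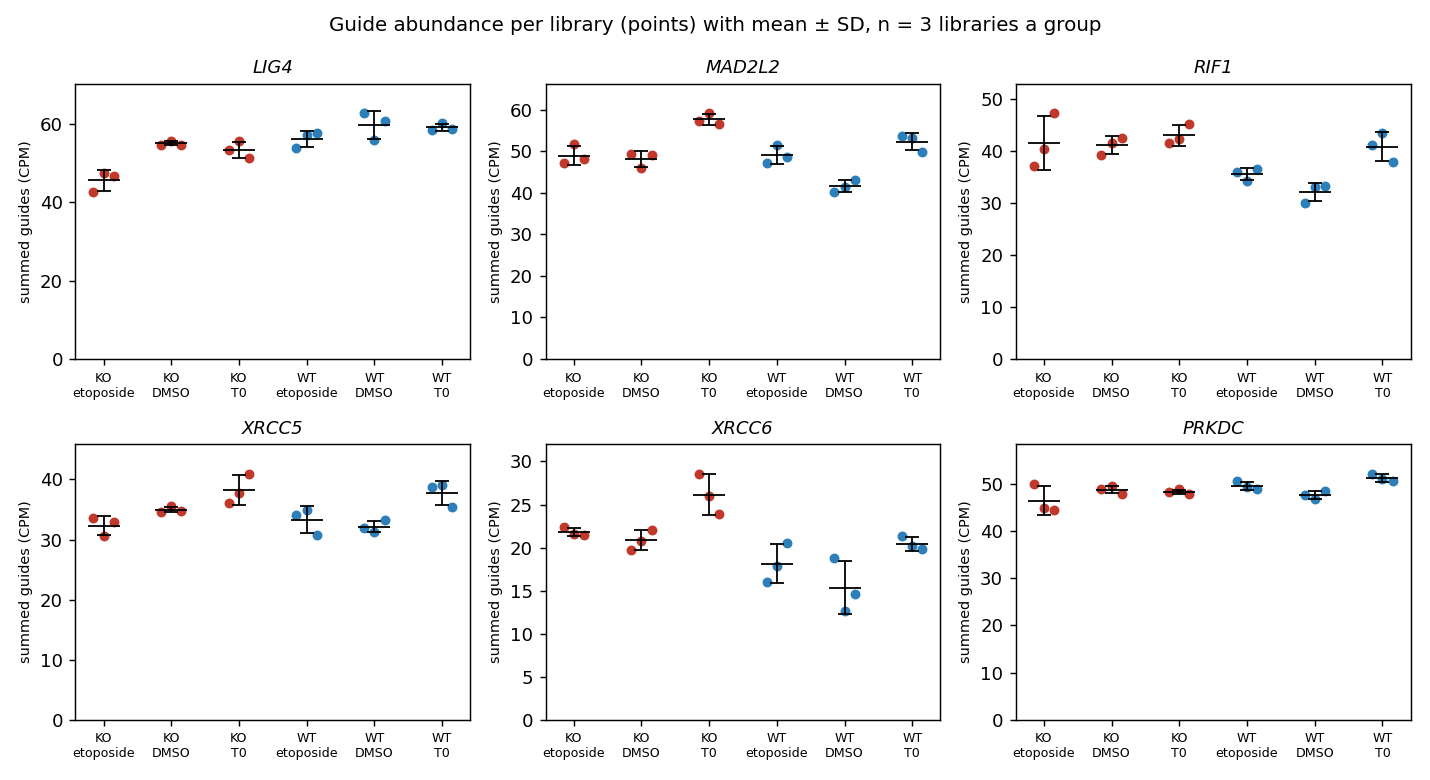
Summed guide abundance in CPM for LIG4, MAD2L2, RIF1, XRCC5, XRCC6 and PRKDC in each of the 18 screen libraries, p53 KO groups in red and p53 WT groups in blue, with the mean and SD of 3 libraries. LIG4 is lowest in the 3 KO etoposide libraries (42.5 to 47.5 CPM), and MAD2L2 is lower in both DMSO groups than at T0.

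The range of the summed guides over all 18 libraries differed between members. NHEJ1 ranged from 62.3 to 72.1 CPM, DCLRE1C from 50.6 to 59.7 CPM, POLL from 58.9 to 74.3 CPM, XRCC4 from 41.4 to 49.1 CPM and PRKDC from 44.5 to 52.1 CPM. The members called in a comparison of sums were LIG4, with 42.5 to 62.8 CPM, MAD2L2, with 40.3 to 59.1 CPM, XRCC5, with 30.6 to 40.9 CPM, RIF1, with 30.1 to 47.3 CPM, and XRCC6. XRCC6, with 5 guides, had the lowest sums, 12.6 to 28.6 CPM. XRCC6 has 5 pseudogene symbols in RefSeq and DCLRE1C has 1, and whether the guides also match those copies was not checked, since guide sequences were not used here. The gene means most like LIG4 in their course over the 18 libraries were those of WAS (Pearson's r = 0.884), LTBR (0.881), TRAF2 (0.874), NUDT1 (0.87) and ITPR1 (0.865). This is a description over libraries that share their groups, depth and scaling.

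None of the other end joining genes was called with etoposide against DMSO in either line. These 16 measured genes, among them the polymerase POLM, the end processing enzyme APTX, the Ku-binding factor PAXX, the 53BP1 gene TP53BP1 and the shieldin genes, had medians of −0.01 in KO cells and −0.02 in WT cells, beside −0.01 for all genes in both, and 5 and 4 of them had an unadjusted p under 0.05 by edgeR, as did 3295 and 2589 of the 19044 genes. The 7 genes of polymerase theta mediated joining, the 9 break sensing genes and the 14 measured homologous recombination genes gave 0 calls as well, with 1, 1 and 1 of them at an unadjusted p under 0.05 in KO cells and 0, 1 and 2 in WT cells. By edgeR 4.29% of all genes were called in KO and 2.03% in WT cells, so 0 calls in lists this short say little. Over these 4 lists DESeq2 called 0 genes in either line, and limma 1 in KO cells, TDP2, and 0 in WT cells. Against T0, TDP2, the phosphodiesterase that frees topoisomerase II from DNA 5′ ends, fell in etoposide in both lines (−0.29 ± 0.06 in KO, adjusted p = 0.00265, and −0.26 ± 0.06 in WT, adjusted p = 0.00775). Over 96 h in DMSO, H2AFX, the histone variant phosphorylated at breaks, fell in KO (−0.29 ± 0.06) and WT cells (−0.26 ± 0.06), and MDC1, which binds that mark, fell in WT cells (−0.26 ± 0.05). Of the recombination genes, BARD1 fell in KO cells (−0.23 ± 0.07) and BRCA1 fell in WT cells (−0.18 ± 0.05), where RAD51D rose (0.16 ± 0.05). In etoposide against T0 in KO cells H2AFX (−0.31 ± 0.06), MDC1 (−0.22 ± 0.05) and BARD1 (−0.29 ± 0.07) fell. At T0 the KO pool held more MDC1 (0.25 ± 0.05) and BARD1 guides (0.23 ± 0.07) and fewer RAD52 guides (−0.28 ± 0.06) than the WT pool. Of these calls, H2AFX in etoposide against T0, H2AFX and MDC1 over growth in WT cells, and MDC1 and RAD52 at T0 held in every alternative run, and the others were lost in at least 1.

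In the RNA of the p53 WT recipients, the transcripts of the 10 genes spanned a wide range. In such bulk samples, fewer cells that express a gene and less RNA per cell cannot be told apart. Counts of XRCC6 and DCLRE1C are uncertain in so far as their pseudogene copies could take up reads. Levels between genes are compared as RPKM, here CPM per kilobase of the deposited gene length. Averaged over the 5 groups XRCC6 had 266.8 and XRCC5 140.6, far above the rest. MAD2L2 (65.9), PRKDC (24.5), POLL (12.8) and NHEJ1 (10.5) followed, then RIF1 (5.59), XRCC4 (5.09) and DCLRE1C (4.13), and LIG4 was lowest at 2.80. The lowest XRCC6 library, at 255.1, lay above the highest XRCC5 library, at 148.8, and the first 4 genes of this order did not overlap. POLL (8.61 to 15.1) overlapped NHEJ1 (9.59 to 11.5), and RIF1 (4.63 to 7.05), XRCC4 (4.37 to 6.17) and DCLRE1C (3.02 to 4.95) overlapped in turn. LIG4, at 1.93 to 3.73, overlapped DCLRE1C. All 10 passed the filter on low counts, and 15391 genes were tested. With 2 libraries a group, groups that do not overlap say little by themselves, and the share of all genes without overlap was not counted.

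**Figure D4:**
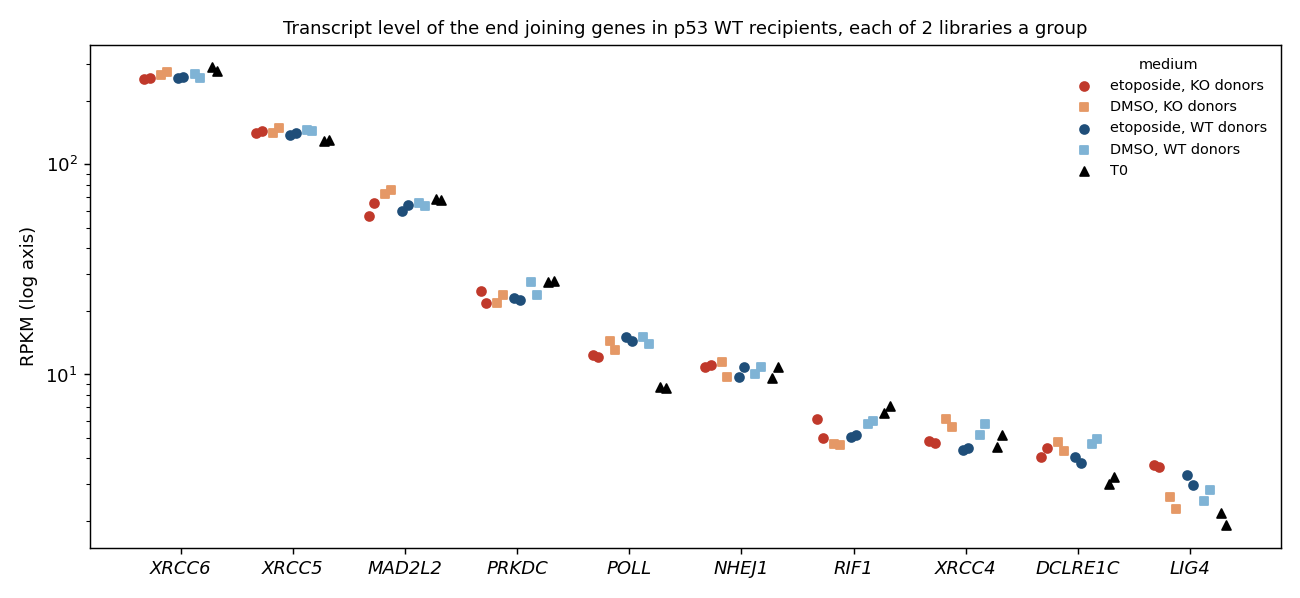
Transcript level of the 10 genes in RPKM, on a log axis, in each of the 2 libraries of the 5 RNA groups. Genes run from the highest mean level, XRCC6, to the lowest, LIG4, and POLL and DCLRE1C stand lower at T0 than in any conditioned medium.

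Medium from etoposide-treated p53 KO donors raised LIG4 transcripts in the recipients. LIG4 had 16.2 and 15.9 CPM in etoposide medium from KO donors, against 11.4 and 9.93 CPM in control medium from KO donors, with no overlap. The log2 fold change was 0.59 ± 0.12 (SE, adjusted p = 0.000852, edgeR's quasi-likelihood test over 15391 genes), a level 1.51 times that in control medium. It was called in all 9 alternatives run, from 0.50 to 0.69, and also without either library of the KO control medium. RIF1 rose as well (0.25 ± 0.09, adjusted p = 0.037), with 62.4 and 50.5 CPM in etoposide medium and 47.6 and 47.2 CPM in control medium. That call was lost without etoposide library A (0.08, adjusted p = 0.561), by DESeq2 (adjusted p = 0.0584) and with only the libraries compared in the fit (adjusted p = 0.116), and without etoposide library B the value was 0.39. MAD2L2 fell (−0.28 ± 0.08, adjusted p = 0.00902), with 75.2 and 86.7 CPM in etoposide medium and 96.6 and 99.8 CPM in control medium, and was lost without the same library (−0.19, adjusted p = 0.13) and with only the libraries compared (adjusted p = 0.0571). XRCC4 gave −0.30 ± 0.13 and was not called (adjusted p = 0.0843). These were 3 members of 10, where 37.2% of all genes were called, so the members' share was close to the background.

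With medium from p53 WT donors, DCLRE1C was the 1 member called, where 34.6% of all genes were. It fell to 28.1 and 26.4 CPM in etoposide medium, against 32.4 and 34.6 CPM in control medium, with no overlap (−0.30 ± 0.09, adjusted p = 0.0189). The call was lost without library B of the WT control medium (adjusted p = 0.134) or of the WT etoposide medium (0.153). LIG4 had 14.4 and 13.0 CPM in etoposide medium and 10.9 and 12.2 CPM in control medium, with no overlap, and was not called (0.24 ± 0.12, adjusted p = 0.138). XRCC4 again stood lower and was not called (−0.31 ± 0.14, adjusted p = 0.0889). RIF1 gave −0.22 ± 0.09 (adjusted p = 0.0755), the sign opposite to that with KO donors, and was called with only the libraries compared (adjusted p = 0.0188). In the same recipients CDKN1A rose with etoposide medium from KO donors (2.35 ± 0.09) and from WT donors (2.01 ± 0.09), and MDM2, another p53 target, rose by 1.60 and 1.40. Of the 5 mesenchymal and bone markers, RUNX2 fell with both (−1.94 ± 0.14 and −1.66 ± 0.13), VIM (−0.27 ± 0.07) and COL1A1 (−0.27 ± 0.10) fell with KO donors, and none rose. Of the 3 markers of other cell types that passed the filter on low counts, all below 7.05 CPM, the epithelial marker CDH1 fell with both (−0.79 ± 0.19 and −0.74 ± 0.18) and the blood marker PTPRC with KO donors (−1.94 ± 0.68), while the epithelial marker EPCAM gave 0.09 and 0.15 and was not called. Their part in the members' changes was not tested.

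The medium effect was not shown to differ between KO and WT donors for any member, where 2.12% of all genes were called. RIF1 came nearest (0.47 ± 0.13, unadjusted p = 0.00191, adjusted p = 0.0606). It was called by DESeq2 (adjusted p = 0.0422), without the filter on low counts (0.0222), and without library A (0.0134) or B (0.0303) of the KO control medium or library B of the KO etoposide medium (0.0283). For LIG4 the difference was 0.35 ± 0.18 (adjusted p = 0.292). Between the etoposide media themselves, KO against WT donors, POLL was lower (−0.27 ± 0.08, adjusted p = 0.0371), with 35.4 and 34.7 CPM for KO donors and 43.1 and 41.7 CPM for WT donors. It was the 1 member called, where 14.1% of all genes were. It was not called by DESeq2 (adjusted p = 0.0722), nor without any 1 of the 4 libraries compared (adjusted p from 0.106 to 0.183). In the authors' deposited table of KO against WT medium POLL had a log2 fold change of −0.278 with an adjusted p of 0.0677, and the authors' deposited table gave the other 9 members adjusted p-values of 0.416 and above.

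Against T0, the transcripts of both end processing genes were higher after 8 h in control medium. No group was kept for 8 h without conditioned medium, so medium and time cannot be told apart against T0. POLL had 41.4 and 37.6 CPM in KO control medium and 43.4 and 40.3 CPM in WT control medium, against 25.1 and 24.7 CPM at T0. DCLRE1C had 33.2 and 30.2 CPM in KO control medium and 32.4 and 34.6 CPM in WT control medium, against 21.1 and 22.6 CPM at T0. No library of either gene overlapped with T0. The log2 fold changes with KO and WT donors were 0.67 ± 0.09 and 0.75 ± 0.09 for POLL (adjusted p = 1.06e-05 and 2.43e-06, edgeR) and 0.54 ± 0.10 and 0.62 ± 0.09 for DCLRE1C (adjusted p = 0.000224 and 5.42e-05). All 4 were called in each alternative run. The 2 comparisons share the T0 libraries. RIF1 fell with KO donors to 47.6 and 47.2 CPM, against 66.4 and 71.8 CPM at T0 (−0.54 ± 0.09, adjusted p = 0.000137), and with WT donors it had 59.0 and 61.1 CPM and was not called (−0.20 ± 0.09, adjusted p = 0.0894), except with only the libraries compared (0.00884).

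Of the core genes, PRKDC fell with KO donors to 296.2 and 324.1 CPM, against 373.1 and 375.7 CPM at T0 (−0.27 ± 0.08, adjusted p = 0.0137), and was lost without T0 library A (0.072) or B (0.0843). LIG4 rose with WT donors to 10.9 and 12.2 CPM, against 9.56 and 8.38 CPM at T0 (0.37 ± 0.13, adjusted p = 0.0352). It was lost without T0 library A (0.0552) or B (0.25) or WT control medium library B (0.226), and by DESeq2 (0.0911). XRCC5 was not called with KO (0.16 ± 0.07, adjusted p = 0.0706) or WT donors (0.16 ± 0.07, adjusted p = 0.0647). Its T0 libraries, at 445.8 and 447.1 CPM, lay below all 8 libraries in conditioned medium, and the share of all genes that do so was not counted. With WT donors XRCC5 was called by DESeq2 (0.0447) and with only the libraries compared (0.0154). With KO donors it gave 0.19 without KO control medium library A. XRCC6, at 593.4 to 673.3 CPM over the 10 libraries, and NHEJ1, at 20.2 to 24.2 CPM, were called in none of the RNA comparisons. With KO donors 4 members of 10 were called, where 36.8% of all genes were, and with WT donors 3, where 35.4% were, so neither share stood out from the background.

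**Figure D5:**
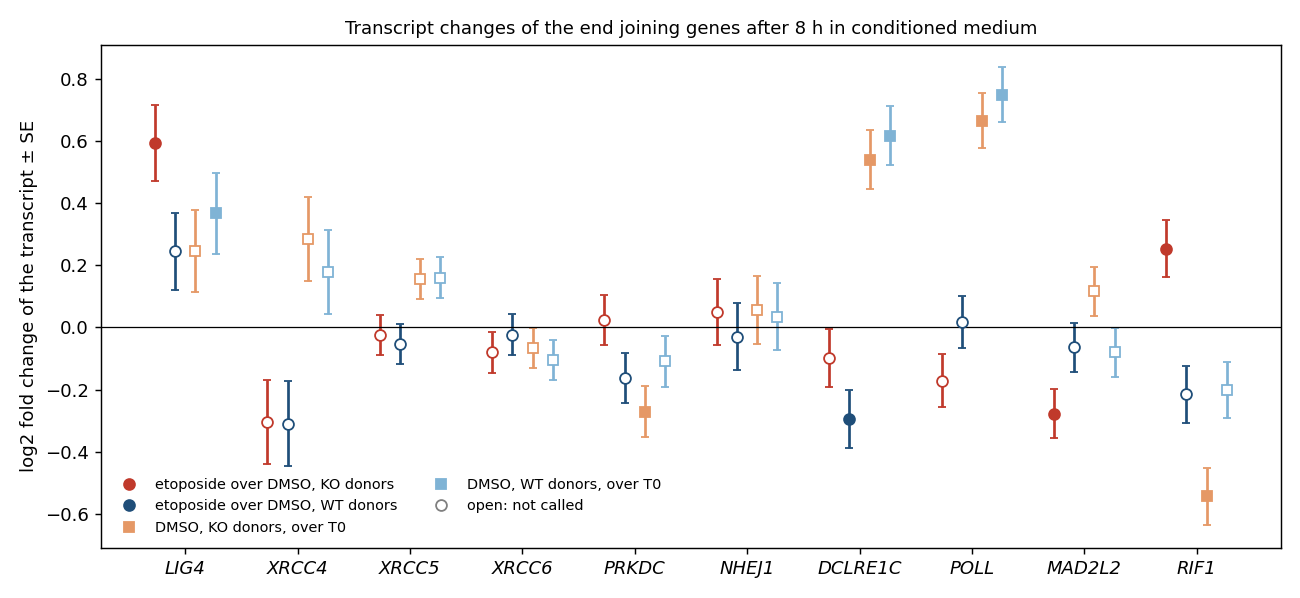
Log2 fold change of the transcripts of the 10 genes, with SE, for etoposide over control medium (circles) and control medium over T0 (squares), with p53 KO donors in warm and p53 WT donors in blue colours. Filled symbols have an adjusted p under 0.05. POLL and DCLRE1C stand highest over T0, and LIG4 stands highest in etoposide over control medium from KO donors.

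Without losing the call in any alternative, DCLRE1C and POLL rose over T0, and LIG4 rose with etoposide medium from KO donors. LIG4 also rose over T0 with WT donors (0.37 ± 0.13), a call lost in at least 1 alternative, so these genes are no clean contrast. The sequences before the start of these 3 genes are shown. They are the 250 bases before the most upstream start listed by RefSeq on GRCh38.p14, each on the minus strand, at chr10:14954433-14954682 for DCLRE1C, chr10:101588271-101588520 for POLL and chr13:108218350-108218599 for LIG4. Each window also overlaps a protein-coding neighbour in RefSeq, MEIG1 for DCLRE1C, DPCD for POLL and ABHD13 for LIG4. Capitals mark matches, on either strand, to the CCAAT box. They also mark the GGGCGG letters of a GC box. The third motif marked is CCGGAA, and no match overlaps another.
DCLRE1C: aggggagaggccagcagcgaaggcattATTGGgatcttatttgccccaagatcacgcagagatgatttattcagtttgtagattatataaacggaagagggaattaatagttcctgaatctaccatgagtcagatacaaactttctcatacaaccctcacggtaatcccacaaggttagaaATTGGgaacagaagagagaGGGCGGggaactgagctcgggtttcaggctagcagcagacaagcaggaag
POLL: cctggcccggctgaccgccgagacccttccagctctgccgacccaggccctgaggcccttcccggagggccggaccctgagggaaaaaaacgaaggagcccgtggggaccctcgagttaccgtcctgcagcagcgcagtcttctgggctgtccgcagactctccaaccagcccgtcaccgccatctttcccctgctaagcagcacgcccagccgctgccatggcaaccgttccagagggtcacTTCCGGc
LIG4: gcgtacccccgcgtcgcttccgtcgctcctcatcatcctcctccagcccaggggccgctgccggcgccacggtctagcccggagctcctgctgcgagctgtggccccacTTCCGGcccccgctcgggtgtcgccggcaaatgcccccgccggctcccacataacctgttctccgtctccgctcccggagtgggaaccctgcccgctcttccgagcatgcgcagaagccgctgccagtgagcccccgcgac
DCLRE1C holds CCAAT 2 times, as ATTGG on the strand shown, and GGGCGG once, and 45.6% of its bases are G or C. POLL holds CCGGAA as TTCCGG, ending 2 bases before its start, with 67.2% G or C. LIG4 holds the same letters further upstream, with 72.0% G or C. Of all 35116 windows of this length, 32.0% hold CCAAT, 42.6% GGGCGG and 14.5% CCGGAA. The p53 half-site, sought by its consensus on both strands and present in 5.57% of windows, was not matched in these 3 windows. DCLRE1C and POLL, which rose together, share none of the 3 printed motifs.

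Transcripts of the other pathway genes moved in both directions. Among the 15 measured end joining genes outside the 10, 5 rose and 0 fell with etoposide medium from KO donors, and 2 rose and 1 fell with that from WT donors, with medians of 0.15 and 0.12 beside −0.01 and 0.01 for all genes. Over all genes 37.2% and 34.6% were called in these comparisons in either direction, so the shares of this list were no larger than the background. APLF, a histone chaperone that binds Ku, rose with both (1.35 ± 0.20 for KO and 1.09 ± 0.20 for WT donors), as did APTX, which removes AMP left by failed ligation (0.28 ± 0.09 and 0.31 ± 0.09, lost with both in at least 1 alternative). With KO donors TDP2 (0.41 ± 0.11), ERCC6L2 (0.31 ± 0.11) and the shieldin gene SHLD1, listed as C20orf196 (0.88 ± 0.28), rose too, and with WT donors TP53BP1 fell (−0.30 ± 0.08). C20orf196 was counted little, at 1.95 and 3.07 CPM in KO etoposide medium against 1.47 and 1.23 CPM in KO control medium. APLF was low too, at 2.43 to 7.44 CPM over the 10 libraries. Of the 9 break sensing genes 2 rose and 4 fell with KO donors, and 2 rose and 3 fell with WT donors. ATM, the kinase that answers to breaks, rose (0.50 ± 0.09 and 0.42 ± 0.09), as did the ubiquitin ligase RNF168 (0.34 ± 0.10 and 0.27 ± 0.10), whereas H2AFX (−0.89 ± 0.08 and −0.57 ± 0.08), MDC1 (−0.63 ± 0.09 and −0.76 ± 0.09) and CHEK2 (−0.65 ± 0.11 and −0.39 ± 0.11) fell with both. MRE11A fell with KO donors (−0.27 ± 0.10).

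Genes of the competing routes were mixed as well. Of the 7 genes of polymerase theta mediated joining, 0 rose and 1 fell with KO donors and 2 rose and 2 fell with WT donors. XRCC1, the scaffold of ligase III, fell with both (−0.31 ± 0.07 and −0.21 ± 0.07). With WT donors the polymerase gene POLQ fell (−0.29 ± 0.09) while LIG1 (0.44 ± 0.07) and the flap nuclease gene FEN1 (0.33 ± 0.07) rose. Of the 15 homologous recombination genes, 2 rose and 5 fell with KO donors and 2 rose and 4 fell with WT donors. Beside both lists, 37.2% of all genes were called with KO and 34.6% with WT donors in either direction. In lists of this size these counts are a description and not a test. PALB2 (0.50 ± 0.10 and 0.55 ± 0.10) and RAD51C (0.46 ± 0.08 and 0.60 ± 0.08) rose with both, and BRCA1 (−0.27 ± 0.09 and −0.34 ± 0.09), BARD1 (−0.31 ± 0.11 and −0.44 ± 0.11) and RAD51B (−1.07 ± 0.18 and −1.06 ± 0.18) fell with both. RAD51B was counted little, at 2.89 to 7.91 CPM over the 10 libraries. XRCC3 (−0.44 ± 0.10) fell with KO donors and RAD54L (−0.29 ± 0.10) with WT donors. In the test of the difference between donors, 0 genes of these lists were called by edgeR, and between the 2 etoposide media LIG1 (−0.23 ± 0.07) and MRE11A (−0.31 ± 0.10) were lower with KO donors, both lost in at least 1 alternative. Of the 19 calls in these lists with KO donors 11 held in every alternative run, and of the 18 with WT donors 9 did. APTX, RNF168, BRCA1 and BARD1 were lost in at least 1 alternative with both donor lines, ERCC6L2, C20orf196 and MRE11A with KO donors, and CHEK2, TP53BP1, XRCC1, POLQ and RAD54L with WT donors. DESeq2 called 1 gene of these lists, LIG1, in the test of the difference between donors.

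In control medium over T0, 5 of the 9 break sensing genes rose with each donor line and 0 fell. In these comparisons 36.8% of all genes were called with KO and 35.4% with WT donors in either direction. Other lists also had calls in 1 direction. Of the 15 homologous recombination genes 3 rose with KO and 5 with WT donors, and of the 7 polymerase theta genes 3 and 1 rose, and none of either list fell. The break sensing genes were RAD50 (0.39 ± 0.08 with KO and 0.44 ± 0.08 with WT donors), H2AFX (0.59 ± 0.08 and 0.40 ± 0.08), MDC1 (0.34 ± 0.09 and 0.51 ± 0.09), RNF8 (0.47 ± 0.09 and 0.48 ± 0.09) and RNF168 (0.29 ± 0.11 and 0.41 ± 0.11). Of the other end joining genes 3 rose and 3 fell with KO donors, and 3 rose and 2 fell with WT donors. ERCC6L2 (−0.65 ± 0.10 and −0.57 ± 0.10) fell with both, and DYNLL1, a light chain that binds 53BP1, rose with both (0.55 ± 0.08 and 0.33 ± 0.08). RAD52 (0.55 ± 0.11 and 0.67 ± 0.11), RAD54L (0.47 ± 0.10 and 0.61 ± 0.10) and BRCA1 (0.35 ± 0.09 and 0.58 ± 0.09) rose with both. Of the 17 calls in the pathway lists with KO donors 7 held in every alternative run, and of the 16 with WT donors 11 did. RNF168 was lost in at least 1 alternative with both, and MDC1 and BRCA1 with KO donors.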

How the data were processed

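Guide abundance in genomic DNA was measured in 18 screen libraries and RNA in 10 libraries. The authors deposited raw counts per guide and per gene symbol. Per the submitters' processing notes, Bowtie2, DESeq2 and the build hg19 were used, without versions or further settings. The authors' deposited table of 1 comparison holds log2 fold changes, a Wald statistic (a score) and p-values, and mean scaled counts (signal), per the file headers. It does not say which libraries entered. All per-sample columns were matched to samples.

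Guide counts were summed per gene (at least 3 guides, 19044 genes). Sums, single guides (109367, non-targeting included) and RNA counts (15391 genes after filterByExpr) were tested with edgeR 4.0.16 (quasi-likelihood, TMM scaling, all libraries of an assay in 1 fit) in R 4.3.3, with Benjamini-Hochberg adjustment over all features and a threshold of 0.05. The SE is the log2 fold change over the root of F. CPM use TMM-scaled library sizes. RPKM use the authors' deposited gene lengths. Alternatives used DESeq2 1.42.0, limma 3.58.1, other scalings, guide filters, only the libraries compared, a replicate block and each library left out. The scripts were tested on simulated data. Depth was 30437296 to 48230735 counts in the screen and 16825669 to 20290764 in RNA. PCR reads carry no stated molecular identifiers, so precision rests on the spread between libraries. 51 gene symbols that a spreadsheet had turned into currency amounts were restored.

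The reported fit did not pair libraries by replicate letter. In the screen, libraries of different groups with the same letter correlated in their deviations by −0.0145 to 0.0977 (median 0.00918). Those with different letters correlated by −0.0881 to 0.0302 (median −0.00583). In RNA the same-letter range was −0.0726 to 0.154. With 2 libraries a group the RNA deviations mirror each other, so the different-letter range, −0.154 to 0.0726, adds nothing. Low correlations do not exclude that libraries with the same letter were handled together. The 10 members are all named. Other pathway genes are named where called, except some that are not reported here, single guides for members called on sums in an etoposide comparison or with at least 2 called guides, and the 5 genes most like the member of smallest p. Single guides of other members were chosen for the text because they were called. Members and lists were chosen with earlier results of these data known.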

Additional observations from a re-analysis of the deposited data

How the results depend on the processing

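No value changed sign under any alternative where it was called. LIG4 with etoposide in KO cells, MAD2L2 over growth in both lines, RIF1 and XRCC6 over growth in WT cells, LIG4 with etoposide medium from KO donors, DCLRE1C and POLL over T0 with both media and RIF1 over T0 with KO donors were called in every alternative run. The fit with the replicate block called the same 24 member results as the fit without it (LIG4 with etoposide in KO cells, −0.27, adjusted p = 0.000129).

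Counts of members called changed as follows. Scaling to non-targeting guides gave 2 with etoposide against DMSO in WT cells (1 in the report), 5 over growth in WT cells (4), 1 in etoposide against T0 in WT cells (0) and 2 at T0 (1). Leaving out the most counted guide of each gene gave 1 in etoposide against T0 in WT cells and 0 at T0, and leaving out guides with a mean count under 100 gave 2 in etoposide against T0 in KO cells (3). Using only the libraries compared gave 1 in etoposide against T0 in WT cells, 3 at T0, 1 with etoposide medium from KO donors (3), 2 from WT donors (1) and 5 in control medium from WT donors over T0 (3). DESeq2 gave 2 with etoposide medium from KO donors. DESeq2 and the absence of a filter each gave 1 in the difference between donors (0) and 0 between the etoposide media (1). Leaving out 1 library gave 0 to 2 with etoposide against DMSO in WT cells, 1 to 2 over growth in KO cells (2), 3 to 4 in WT cells, 0 to 3 in etoposide against T0 in KO cells, 0 to 1 at T0, 1 to 4 with etoposide medium from KO donors, 0 to 1 from WT donors, 0 to 1 in the difference between donors, 0 to 0 between the etoposide media 2 to 3 in control medium from WT donors over T0 and 3 to 5 from KO donors (4). The causes were not tested.

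Member values that were called in the report or under the alternative moved by over 1.5 times as follows. Without the most counted guide of the gene MAD2L2 with etoposide in WT cells stood at 0.37, XRCC6 over growth in KO cells at −0.49, over growth in WT cells MAD2L2 at −0.54 and XRCC5 at −0.37, and XRCC5 in etoposide against T0 in WT cells at −0.30. Limma on mean values over guides gave −0.53 and −0.36 for MAD2L2 and XRCC5 over growth in WT cells and −0.36 for LIG4 in etoposide against T0 in KO cells. Non-targeting scaling gave −0.19 for PRKDC over growth in WT cells (−0.11). XRCC6 with etoposide in WT cells was 0.41 without WT DMSO library A (0.23), and RIF1 with etoposide medium from KO donors 0.08 and 0.39 without etoposide library A and B (0.25).

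Counts over all genes, on which the background shares rest, moved by over 1.5 times in these cases. With non-targeting scaling the genes higher and lower were 974 and 17 for etoposide against DMSO in WT cells (317 and 69 in the report), 835 and 107 in KO cells (550 and 267), 13 and 1570 for DMSO against T0 in KO cells (100 and 515), 20 and 3035 in WT cells (353 and 891), 33 and 299 for etoposide against T0 in KO cells (73 and 139), 1959 and 155 at T0 (479 and 381), 4 and 15 for the difference in etoposide effect (5 and 5) and 9 and 1 for that in growth (2 and 1). It gave 289 calls in etoposide against T0 in WT cells (145). Only the libraries compared gave 500 for etoposide against DMSO in KO cells (817), 335 for etoposide against T0 in WT cells, 2060 at T0 (860), 5 and 1 for the differences in etoposide effect and growth, and 118 for that between donors (326). DESeq2 gave 52, 13 and 496 for these 3 differences. Limma gave 5 and 1 for the screen differences, 141 for etoposide against T0 in KO cells (212) and 555 at T0. Without the most counted guides 0 were called in the growth difference and 115 in etoposide against T0 in KO cells, and without the filter 791 in the difference between donors, where leaving out 1 library gave 30 to 1693. Leaving out 1 library also moved them, with lowest and highest counts over all libraries of 513 and 667 for etoposide against DMSO in KO cells and 240 and 361 in WT cells (386), 799 and 1117 for growth in WT cells (1244), 92 and 137 for etoposide against T0 in KO cells and 69 and 92 in WT cells, 334 and 396 at T0, 5 and 17 for the difference in etoposide effect and 0 and 5 for that in growth. In RNA they were 3548 and 3952 with etoposide medium from WT donors (5326), 767 and 1055 between the etoposide media (2166), and 3611 and 5851 with KO and 3626 and 3918 with WT donors over T0 (5668 and 5447).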
